A study of Mus musculus with 8 samples.

Results

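The 10 pan-endothelial genes described here are Pecam1, Cdh5, Esam, Kdr, Flt1, Tek, Tie1, Egfl7, Sox17 and Sox18, which are in general use as markers of the endothelium as a whole. They were chosen by symbol, and all 10 were found among the 52195 gene symbols of the deposited expression table. Pieces of whole lung, kidney, liver and small intestine were measured by bulk RNA sequencing, with 2 libraries for each tissue and 8 in all. All mice were untreated males of strain C57BL/6 (C57BL/6J in the methods) aged 6 to 10 weeks, each giving 4 tissues, and the pair of libraries of each tissue came from separate mice. No genotype, allele or agent separates the groups, which differ by tissue alone. Whether libraries with the same number came from the same mouse is not stated in the sources used here.

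Endothelial cells line every blood and lymph vessel. They hold each other through adherens junctions, respond to vascular endothelial growth factors (VEGFs) and angiopoietins through receptor tyrosine kinases, and acquire and keep their identity through transcription factors of the ETS and SOXF groups. The lung is one of the tissues richest in capillaries, since gas exchange takes place across them, while the capillaries of kidney glomeruli, liver sinusoids and intestinal villi are fenestrated.

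Each tissue carried its own marker. Sftpc, a surfactant protein of lung alveolar cells, lay at 11569 to 13440 FPKM (fragments scaled to the length of the transcript in kilobases and to the size of the library) in lung and at no more than 16.4 elsewhere. Umod, made by the kidney tubule, lay at 554 to 753 FPKM in kidney and at no more than 2.74 elsewhere. Alb, the serum albumin of hepatocytes, reached at least 29371 FPKM in liver and at most 69.0 elsewhere, and Fabp2, a fatty acid carrier of enterocytes, at least 4472 in small intestine and at most 55.1 elsewhere. These 4 markers were chosen after their values were seen. The depth behind the FPKM values, worked out from the steps between low values, was 9164187 to 12427339 reads in lung, liver and small intestine and 17310074 to 21444675 in kidney. The values of the members correspond to between 14 reads (Sox17 in small intestine 2) and 8410 reads (Pecam1 in lung 2). Values of Sox17 outside lung and kidney rest on only 14 to 26 reads.

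The FPKM scale was not level between the tissues. Over 16328 genes with at least 1 FPKM in at least 2 libraries, the median difference of lung from the mean of the other 3 tissues was 0.82 on the log2 scale, and that of liver was -0.72. Differences between tissues are therefore given both on the FPKM values as deposited and after median-of-ratios scaling, which divides each library by the median of its ratios to the geometric mean over all 8 libraries. The scaling brought the median of all genes to -0.02 for lung and -0.14 for liver. Differences are on the log2(FPKM + 1) scale, which understates the change of genes with values near or under 1. A gene is called higher or lower where its Benjamini-Hochberg adjusted p from limma was under 0.05 and its log2 difference over 1.

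On both scales all 10 members were higher in lung than the average of kidney, liver and small intestine, against 40.7% of all genes tested called higher as deposited and 14.6% after scaling. Sox17 entered the test only through its lung libraries, so the filter favoured its call there and that call is no independent result. The other 9 pass on the libraries outside lung, and all 9 were called higher, beside 35.4% and 10.4% of the 13763 genes that pass in the same way. The median difference of those 9 was 4.16 as deposited and 3.06 after scaling, where that of the 13763 genes was 0.70 and -0.18. Over all 10 members the median was 4.15 as deposited, where that of all genes was 0.82, and 3.04 after scaling, where that of all genes was -0.02. Summed over the 10 members, lung held 649 and 755 FPKM, kidney 50.1 and 27.9, liver 24.1 and 23.1, and small intestine 24.3 and 16.7. Both lung libraries lay above the other 6 for each member on both scales, which was true of 51.4% of genes tested as deposited and of 22.1% after scaling. With 2 of 8 libraries in lung, the exact permutation test over the 28 ways to choose them gave each member its smallest possible p of 0.0357, two-sided. This value restates the lack of overlap just given, Sox17 included, and is no further support. The members were also chosen with earlier results of these data known. In whole tissue, fewer endothelial cells and less of these RNAs per endothelial cell cannot be told apart.

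**Figure D1:**
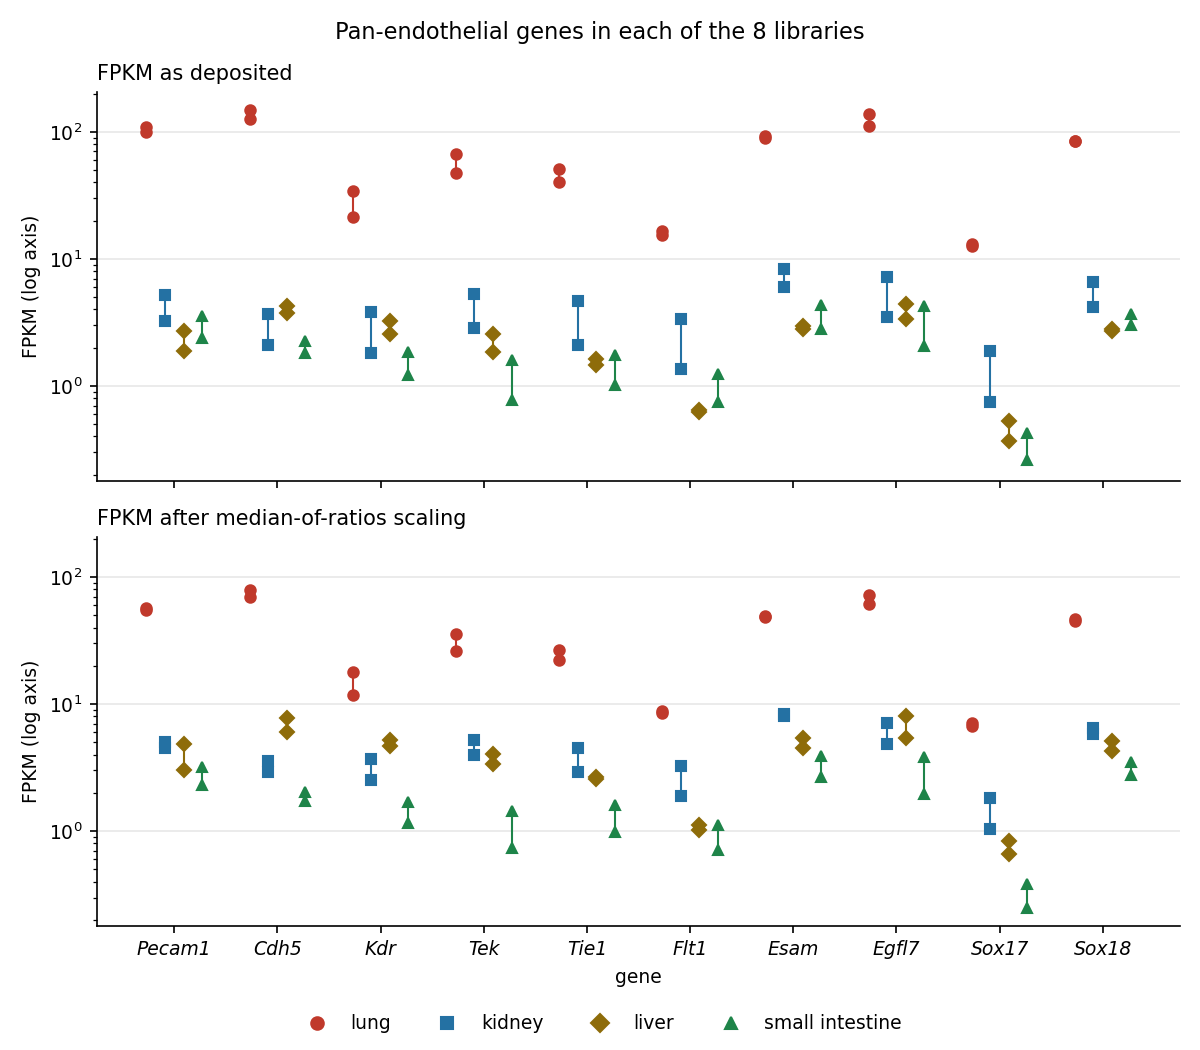
FPKM of the 10 pan-endothelial genes on a log axis, as deposited (upper panel) and after median-of-ratios scaling (lower panel). Each point is a library, coloured by tissue, and lines join both libraries of a tissue. The lung libraries stand above all others for each gene on both scales, and Sox17 is the lowest gene in every tissue.

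The sequence just upstream of the start site is shown for the members that move together, as far as the RefSeq promoter table of GRCm38.p6 holds it. That table had windows for 5 of the 10 members, Kdr, Flt1, Tek, Tie1 and Egfl7, with 3 starts for Egfl7 and 7 windows in all, and the other members were not analysed here. The stretches run from base -90 to base -11 before the start, 5′ to 3′ on the strand of the gene, and are printed where they contain no annotated exon, which leaves out Tie1 and 1 start of Egfl7. The motif counts cover the whole window of each start. Capitals mark matches to the searched motifs on either strand, with overlapping matches run together: CAGGAAG for the ETS family together with its other form CCGGAAG, and further AACAAT for the SOX family, AGATAA for the GATA family, TATAAA for the TATA box and CCGCCC for the GC box.
Kdr, chr5:75978466-75978545, minus strand: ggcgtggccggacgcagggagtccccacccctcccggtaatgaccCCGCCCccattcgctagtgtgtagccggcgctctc
Flt1, chr5:147726022-147726101, minus strand: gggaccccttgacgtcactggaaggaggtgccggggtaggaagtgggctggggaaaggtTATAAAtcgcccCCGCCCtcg
Tek, chr4:94739199-94739278, plus strand: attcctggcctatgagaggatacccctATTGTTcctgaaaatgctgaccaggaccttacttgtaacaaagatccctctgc
Egfl7, chr2:26583775-26583854, plus strand: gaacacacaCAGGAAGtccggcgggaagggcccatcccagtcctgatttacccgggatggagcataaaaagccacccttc
Egfl7, chr2:26586546-26586625, plus strand: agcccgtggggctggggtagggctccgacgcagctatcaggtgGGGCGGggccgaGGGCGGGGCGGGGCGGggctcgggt

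No single motif was shared by the windows. The GC box stood in 3 of the 7 windows (Kdr, Flt1 and 1 start of Egfl7), against 32.7% of the 32851 promoters in the table. The ETS form CAGGAAG stood in 2 of 7, both of Egfl7, against 10.8% of all promoters, and the other ETS form, CCGGAAG, in 0 of 7 against 6.91%. The SOX motif stood in 1 of 7 (Tek, on the opposite strand) against 9.42%, the GATA motif in 0 of 7 against 9.99%, and the TATA box in 1 of 7 (Flt1) against 12.4%. These matches are a description of letters in short windows.

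The 3 adhesion proteins were among the 4 most abundant members in lung per length of transcript. Pecam1 (chr11:106654217-106750628, minus strand, in the GENCODE annotation of GRCm38) encodes PECAM-1, an immunoglobulin family protein at contacts between endothelial cells that platelets and leukocytes also carry. It lay at 99.1 and 109 FPKM in lung, 5.20 and 3.24 in kidney, 2.70 and 1.90 in liver, with 3.55 and 2.40 in small intestine. Lung did not overlap the other tissues, and small intestine overlapped both kidney and liver. Its lung difference was 4.70 ± 0.20 (SE) as deposited and 3.59 ± 0.18 after scaling, with limma adjusted p of 1.05e-06 and 3.55e-06.

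Cdh5 (chr8:104101625-104144511, plus strand) encodes VE-cadherin, the cadherin of endothelial adherens junctions. Its levels were 126 and 149 FPKM in lung, 3.65 and 2.09 in kidney, 4.28 and 3.76 in liver, with 2.26 and 1.81 in small intestine. Cdh5 had the highest lung level of the 10 and the largest lung difference, at 5.16 ± 0.18 as deposited and 4.04 ± 0.15 after scaling (limma adjusted p of 5.73e-07 and 1.32e-06). Both liver libraries were above both kidney libraries, an order shared on means by Kdr and, after scaling, by Egfl7.

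Esam (chr9:37528078-37538319, plus strand) encodes a tight junction protein of endothelium and platelets. Its levels were 89.7 and 92.5 FPKM in lung, 8.30 and 6.02 in kidney, 2.97 and 2.80 in liver, with 4.32 and 2.80 in small intestine. It was the most abundant member in kidney, where Cdh5 stood well below it. The lung difference was 4.14 ± 0.17 as deposited and 3.03 ± 0.15 after scaling, with limma adjusted p of 9.86e-07 and 3.43e-06.

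Kdr and Flt1 encode VEGF receptors 2 and 1. Kdr (chr5:75932827-75978458, minus strand) carries most of the mitogenic signal of VEGF-A, while Flt1 (chr5:147561604-147726011, minus strand) binds the ligand tightly and signals weakly. The upstream stretches of both, shown above, each hold a GC box, and that of Flt1 also a TATA box. Kdr lay at 21.4 and 34.2 FPKM in lung, 3.84 and 1.83 in kidney, 2.56 and 3.26 in liver, with 1.86 and 1.21 in small intestine. Its lung libraries were the least alike of any member, with lung 1 at 0.627 of lung 2. The lung difference of Kdr was 3.09 ± 0.26 as deposited and 2.01 ± 0.20 after scaling (limma adjusted p of 2.5e-05 and 8.78e-05).

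Flt1 lay at 15.3 and 16.6 FPKM in lung, 3.35 and 1.37 in kidney, 0.622 and 0.646 in liver, with 1.24 and 0.746 in small intestine. It had the smallest lung difference as deposited, 2.96 ± 0.24, and 2 ± 0.17 after scaling, with limma adjusted p of 1.84e-05 and 4.2e-05. The ratio of Kdr to Flt1 within a library needs no scaling between libraries. That ratio was 4.12 and 5.05 in liver, 1.40 and 2.06 in lung, 1.14 and 1.34 in kidney, and 1.5 and 1.63 in small intestine. Both liver libraries thus stood apart from the other 6, and the ratio is given as a description with no test.

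Tek and Tie1 encode the TIE receptors. Tek (TIE2; chr4:94739289-94874976, plus strand) binds the angiopoietins, and Tie1 (chr4:118471191-118490061, minus strand) modulates its signal. Levels of Tek were 47.5 and 67.4 FPKM in lung, 5.33 and 2.87 in kidney, 1.85 and 2.55 in liver, with 1.59 and 0.768 in small intestine. Those of Tie1 were 40.4 and 50.7 FPKM in lung, 4.68 and 2.09 in kidney, 1.46 and 1.62 in liver, with 1.76 and 1.02 in small intestine. Tek exceeded Tie1 in 6 of 8 libraries, and fell below it only in those of small intestine, where the ratio of Tek to Tie1 was 0.902 and 0.751 against 1.14 to 1.58 elsewhere. The lung difference of Tek was 4.16 ± 0.26 as deposited and 3.06 ± 0.19 after scaling (limma adjusted p of 4.86e-06 and 9.64e-06). For Tie1 it was 3.98 ± 0.25 and 2.92 ± 0.18 (limma adjusted p of 5.37e-06 and 9.06e-06).

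Egfl7 (chr2:26580014-26593120, plus strand) encodes a protein that endothelial cells secrete into the matrix around the growing vessel, and was the second most abundant member in lung. It lay at 111 and 138 FPKM in lung, 7.24 and 3.50 in kidney, 4.42 and 3.38 in liver, with 4.24 and 2.05 in small intestine. Its lung difference was 4.67 ± 0.29 as deposited and 3.54 ± 0.24 after scaling, with limma adjusted p of 4.74e-06 and 1.35e-05. Of its exon length, 11.2% overlaps other genes, among them Agpat2, which lay at 18 and 14.7 FPKM in lung, 9.52 and 11.8 in kidney, 69.3 and 81.4 in liver, and at 86.8 and 102 in small intestine. Use of strand in the counting is not given in the sources used here, so reads of this overlap may belong to either gene, and its part in the values was not tested.

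Sox17 and Sox18 encode SOXF transcription factors of endothelium, Sox17 with a role in arteries and Sox18 in vessels and the lymphatic system. Sox17 (chr1:4490931-4497354, minus strand) lay at 13.0 and 12.7 FPKM in lung, 1.87 and 0.751 in kidney, 0.366 and 0.528 in liver, with 0.425 and 0.259 in small intestine. It was the lowest member in each library, and outside lung it reached 1 FPKM only in kidney 1. Sox17 thus passed the filter only through lung, and its lung difference is given as a description. Sox18 (chr2:181669836-181671640, minus strand) lay at 85.3 and 84.8 FPKM in lung, 6.62 and 4.17 in kidney, 2.83 and 2.69 in liver, with 3.03 and 3.65 in small intestine. Per length of transcript, Sox18 was 3.55 to 14.1 times as abundant as Sox17 across the libraries, with no tissue standing apart in both of its libraries. The lung difference was 3.08 ± 0.20 for Sox17 and 4.2 ± 0.17 for Sox18 as deposited, and 2.16 ± 0.15 and 3.09 ± 0.14 after scaling (for Sox18, limma adjusted p of 8.38e-07 and 2.2e-06). Of the exon length of Sox17, 16.85% overlaps Gm37587, which lay at no more than 0.04 FPKM in any library.

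Against each other tissue singly, all 10 members were again called higher in lung on both scales, with the same limit for Sox17. The share of all genes tested that was called higher was 41.4% against kidney, 55.5% against liver and 30.6% against small intestine as deposited, and 17.3%, 19.4% and 15% after scaling. The median difference of the members was 3.53 against kidney, 4.35 against liver and 4.33 against small intestine as deposited, and 2.48, 2.93 and 3.54 after scaling. The smallest single difference after scaling was that of Kdr against liver, 1.40 ± 0.24 (limma adjusted p of 0.00179), and the largest that of Cdh5 against small intestine, 4.70 ± 0.18 (limma adjusted p of 1.43e-06). In FPKM as deposited, the lung mean exceeded that of the next tissue by 6.77 times (Flt1) to 34.3 times (Cdh5), and after scaling by 3.03 times (Kdr) to 11.7 times (Pecam1).

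**Figure D2:**
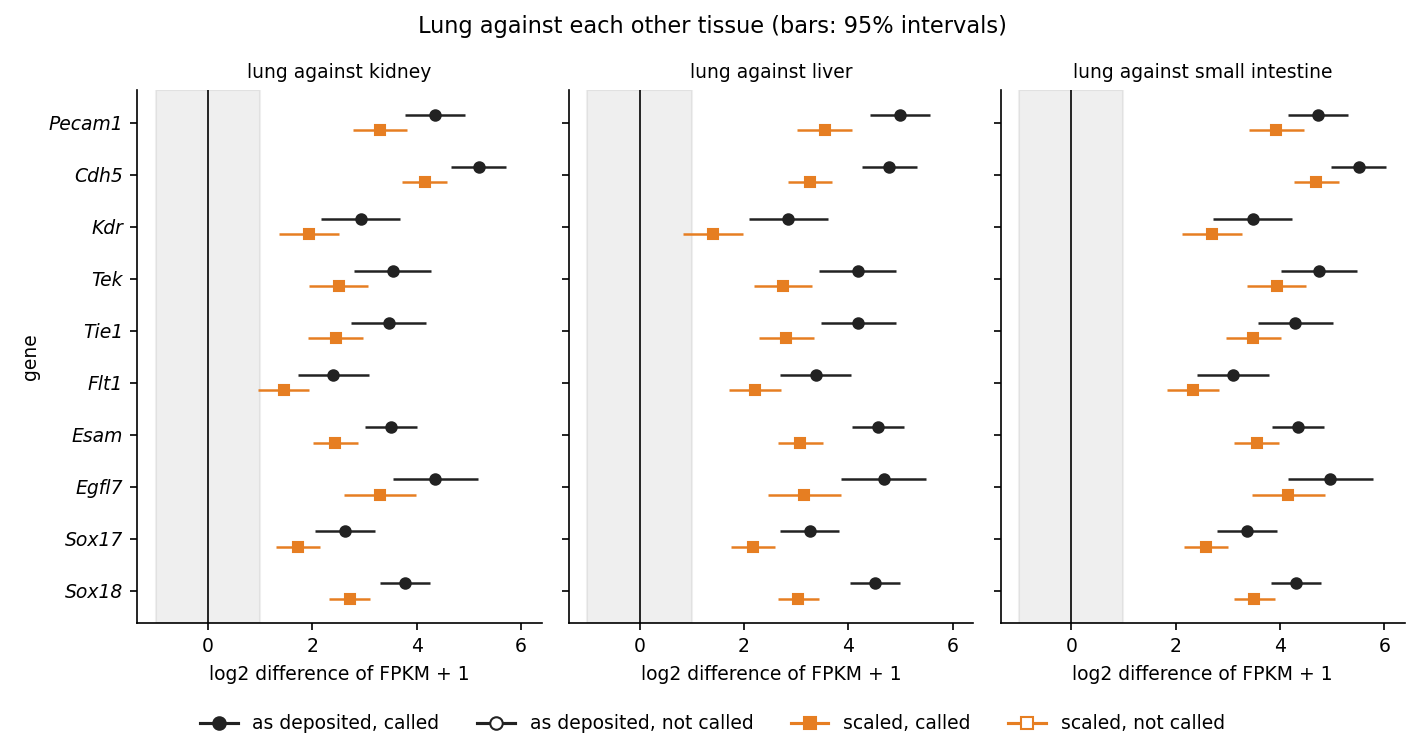
Differences of lung from kidney, liver and small intestine for the 10 genes, in log2(FPKM + 1), with 95% intervals, as deposited (black circles) and after median-of-ratios scaling (orange squares). Filled symbols are called and the grey band spans log2 differences of -1 to 1. Every symbol is filled, and the scaled values lie below those as deposited.

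Outside lung the members lay close together, and the order of the tissues depended on the gene and the scale. Kidney came next after lung in 8 of 10 members as deposited and liver in the other 2, Cdh5 and Kdr. After scaling, kidney came next in 7 and liver in 3 (Cdh5, Kdr and Egfl7). Small intestine was lowest in 6 members as deposited, with liver lowest in the other 4, and in all 10 after scaling. The kidney pair differed more than this order did in many cases: kidney 1 was above kidney 2 for all 10 members, with a median ratio of 1.96, and for 9 of 10 after scaling, with a median ratio of 1.37. Small intestine 1 was likewise above small intestine 2 for 9 of 10 members, Sox18 being the exception, with a median ratio of 1.59 as deposited and 1.51 after scaling.

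Between kidney and liver, 1 of 10 members was called higher in kidney as deposited, beside 16.2% of all genes tested, and 0 were called lower, beside 6.9%. That member was Esam, with a difference of 1.06 ± 0.21 (limma adjusted p of 0.00600). After scaling, limma called 0 of 10 in either direction, with 4 members at an unadjusted p under 0.05. Shares of all genes called on that scale were 11.4% higher and 10.6% lower. Cdh5 was the member that leaned furthest towards liver, with a scaled difference of -0.89 ± 0.18 (limma adjusted p of 0.00664) that did not reach the fold threshold. Without kidney 2, 4 members were called higher in kidney as deposited, beside 20.4% of all genes, and without kidney 1, none, beside 13.9%.

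Between kidney and small intestine, Tek alone was called higher in kidney as deposited, at 1.21 ± 0.31 (limma adjusted p of 0.0152), beside 10.7% of all genes tested. Esam, Tek and Tie1 were called higher after scaling, at 1.12 ± 0.19, 1.43 ± 0.24 and 1.04 ± 0.22 (limma adjusted p of 0.00188, 0.00191 and 0.00674), beside 13.6% of all genes. With a library left out, over both scales, Esam ran from 0.60 to 1.33, Tek from 0.86 to 1.68 and Tie1 from 0.39 to 1.29. The 10 differences ran from 0.32 (Cdh5) to 1.21 (Tek) as deposited, all on the side of kidney. Without kidney 1, or without small intestine 2, no member was called as deposited, and without kidney 2 there were 5, beside 12.8% of all genes.

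Between liver and small intestine, limma called 0 of 10 members higher in liver as deposited, where 1 had an unadjusted p under 0.05, beside 7.89% of all genes tested. After scaling it called 4 higher in liver, beside 14% of all genes. These were Cdh5 at 1.44 ± 0.18, Kdr at 1.30 ± 0.24, Tek at 1.19 ± 0.24 and Egfl7 at 1 ± 0.30 (limma adjusted p of 0.000417, 0.00348, 0.00462 and 0.0260). With a library left out, over both scales, Cdh5 ran from 0.62 to 1.60 and Kdr from 0.45 to 1.45. Tek then ran from 0.30 to 1.44 and Egfl7 from -0.10 to 1.36. The scaling multiplies liver by more than small intestine, with size factors of 0.552 and 0.627 against 1.10 and 1.05, so that this comparison turns on which scale is taken. Flt1, at -0.28 ± 0.29 as deposited and 0.12 ± 0.21 after scaling, did not differ beyond its error on either.

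**Figure D3:**
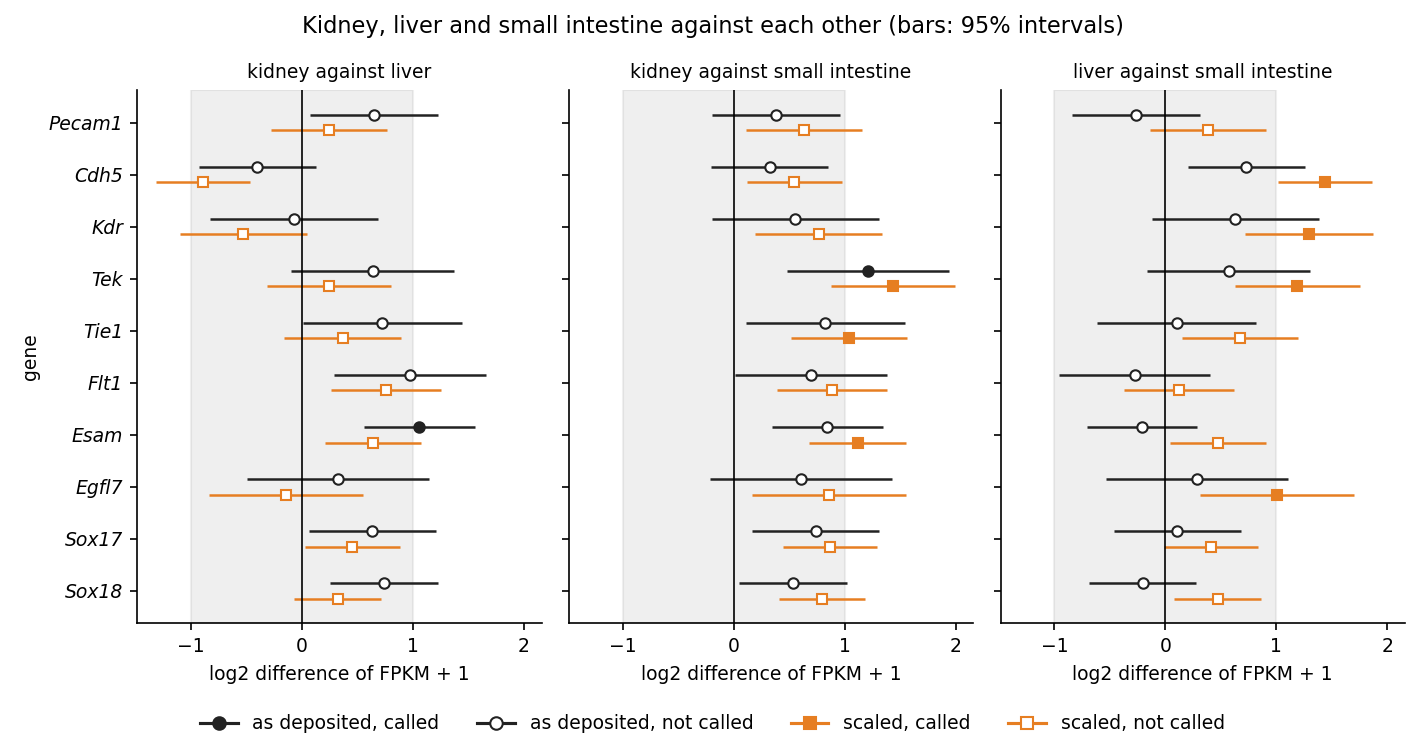
Differences among kidney, liver and small intestine for the 10 genes, in log2(FPKM + 1), with 95% intervals, as deposited (black circles) and after median-of-ratios scaling (orange squares). Most symbols are open and lie inside the grey band of -1 to 1. Filled are Esam for kidney against liver, Tek, Esam and Tie1 for kidney against small intestine, and Cdh5, Kdr, Tek and Egfl7 for liver against small intestine, all but Esam in the first and Tek in the second panel only after scaling.

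The other tissues were also each set against the mean of the remaining 3, lung among them, and here the calls for kidney and liver depended on the scale. Small intestine was called lower for all 10 members on both scales, with median differences of -1.64 and -1.68. Shares of all genes called lower were 11.3% as deposited and 11.6% after scaling. Singly, small intestine lay below lung by a median of 4.33 as deposited and 3.54 after scaling. It lay below kidney by 0.65 and 0.86, and below liver by 0.11 and 0.57, so the call rests largely on lung. Sox17 is among these 10 only through the lung libraries of the comparison mean, so its lower call was set in part by the filter, and all of the other 9 were called. Liver was called lower for 9 of 10 as deposited (8 of 9 without Sox17, for the same reason), beside 32.7% of all genes, and for 2 after scaling (Esam and Pecam1), beside 13.9%, or 0 after scaling without liver 2. The median difference of the members in liver was -1.56 as deposited and -0.79 after scaling, where those of all genes were -0.72 and -0.14. Kdr was the member not called in liver, at -0.71 ± 0.26 as deposited and 0.14 ± 0.20 after scaling. Kidney was called lower for 3 of 10 (Cdh5, Egfl7 and Pecam1) as deposited, beside 16.1% of all genes, and for Cdh5 alone after scaling, at -1.5 ± 0.15 (limma adjusted p of 0.000133), beside 12.1%. The median difference in kidney was -0.73 as deposited and -0.44 after scaling, where those of all genes were -0.34 and -0.11, and Flt1 lay at -0.24 and 0.064. After scaling, the shares of members called lower in kidney and liver were thus near those of all genes. Without kidney 1, 6 members were called lower in kidney as deposited, beside 21% of all genes, and without kidney 2, 1, beside 14%.

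The make-up of the group also differed between tissues. When each library was centred on the mean of its 10 members, which removes any scaling between libraries apart from the effect of the pseudocount, Cdh5 was relatively higher in lung by 1.15 ± 0.23 and Flt1 relatively lower, at -1.05 ± 0.21, on the log2(FPKM + 1) scale. In the same fit, 0.57% of all genes tested were called higher and 95.3% lower, since the centre is set by genes that are high in lung. With so many genes called, adjustment changed little, and Cdh5 had a limma p of 4.86e-05 and an adjusted p of 5.13e-05. The members define the centre, so their 10 differences cancel out, and a member above it must be offset by others below it. Kdr and Sox17 leaned the same way as Flt1, both at -0.93, short of the fold threshold, and the remaining 6 members lay between -0.03 (Tie1) and 0.68 (Pecam1). A pseudocount of 1 presses low values together. With a pseudocount of 0.1, where 1.58% of all genes were called higher and 89.3% lower, Cdh5 stayed called at 1.03, the difference of Flt1 was -0.79 and no longer called, that of Kdr was -1 and now called lower (limma adjusted p of 0.00422), and that of Sox17 was -0.26. With limma-voom on recovered reads Kdr was again called lower, at -1.02, and Flt1 was not, at -0.73. After median-of-ratios scaling no member was called relatively lower, with Flt1 at -0.95 and Kdr at -0.93, beside 94.6% of all genes called lower. Whether Flt1, Kdr or neither was called relatively lower in lung thus depended on the setting, while Cdh5 was called higher in each of these fits, at 1.09 after scaling. Without lung 2, Flt1 stood at -0.995 and Kdr at -1.14. Over all fits as deposited with a library left out, Flt1 ran from -1.11 to -0.995 and Kdr from -1.14 to -0.72. Sox17 ran from -1.06 to -0.80, so it too could pass a difference of -1.

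**Figure D4:**
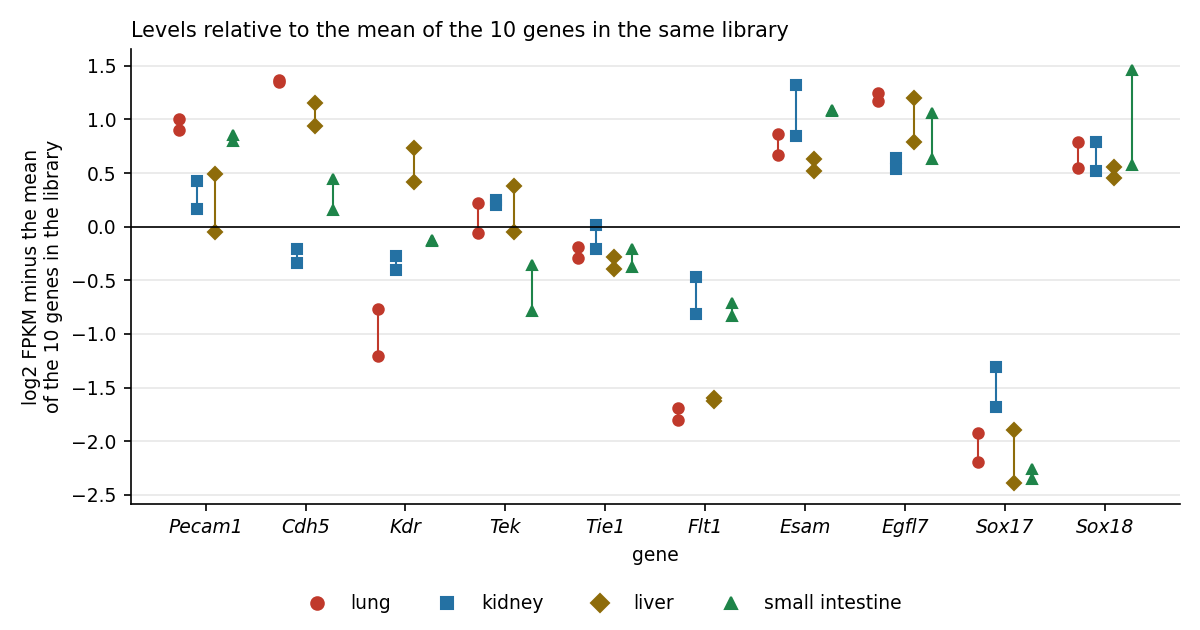
Level of each of the 10 genes in each library relative to the mean of the 10 in that library, as log2 FPKM without a pseudocount. Points are libraries coloured by tissue. Cdh5 is high in lung and liver and low in kidney and small intestine, and Kdr is highest in liver and lowest in lung.

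Cdh5 made up 19.5% and 19.8% of the summed FPKM of the group in lung and 17.8% and 16.2% in liver, but 7.29% and 7.48% in kidney and 9.32% and 10.8% in small intestine. Esam took the larger share where Cdh5 was small, at 16.6% and 21.6% in kidney and 17.8% and 16.8% in small intestine, beside 12.1% to 13.8% in lung and liver. The ratio of Cdh5 to Esam was 1.41 and 1.61 in lung, 1.44 and 1.34 in liver, 0.440 and 0.347 in kidney, and 0.523 and 0.645 in small intestine. Lung and liver therefore did not overlap kidney and small intestine on this ratio, which no scaling between libraries can move. Several ratios of members were computed and not all are given, so this split is a description with no test. How often pairs of other genes split in this way was not computed. Kdr took 10.6% and 14.1% of the sum in liver and 3.30% and 4.53% in lung, although lung held more Kdr in FPKM. Flt1 took 2.20% to 2.79% in lung and liver and 4.46% to 6.70% in kidney and small intestine.

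The ligands of the receptors were measured in the same libraries. Vegfa, the main ligand of KDR and FLT1, lay at 181 and 197 FPKM in lung, 48.7 and 29.3 in kidney, 31.2 and 35.1 in liver, with 13.3 and 18.2 in small intestine. It was higher in lung by 2.76 as deposited and 1.59 after scaling, both called. Vegfb, a ligand of FLT1, was instead called higher in kidney, by 1.21 as deposited and 1.5 after scaling, with 22.8 and 22.7 FPKM there and 17.5 and 19.7 in lung. Pgf, which also binds FLT1, reached 1.94 and 2 FPKM in lung and no more than 0.515 elsewhere. Vegfc and Vegfd, ligands of the lymphatic receptor FLT4, were higher in lung on both scales, by 2.20 and 3.35 as deposited and 1.26 and 2.39 after scaling.

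Angpt1, the agonist of TEK, lay at 14.9 and 15.7 FPKM in lung, 2.10 and 1.41 in kidney, and no more than 0.186 in liver and small intestine. Angpt2, which can oppose Angpt1, lay at 6.27 and 8.07 FPKM in lung, 4.30 and 2.18 in kidney, and at most 0.670 elsewhere. Both were called higher in lung on both scales, by 3.45 and 2.05 as deposited and 2.56 and 1.24 after scaling. Angpt4 stayed at or under 0.702 FPKM and did not enter the test. Ptprb, the phosphatase that dephosphorylates TEK, was higher in lung by 3.92 as deposited and 2.84 after scaling.

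Other genes of endothelium were taken as lists. For a gene that reaches 1 FPKM in 2 libraries only through lung, the filter itself favours a higher level there. Members of these lists were therefore counted only where they pass that filter on the 6 libraries outside lung. The counts stand beside 35.4% of genes passing in this way called higher as deposited and 10.4% after scaling. Of 6 VEGF ligands, receptors and co-receptors, 5 were higher in lung as deposited and 4 after scaling, and of 3 angiopoietin ligands and TIE partners, 3 on both scales. Of 18 junction and surface proteins, 17 were higher as deposited and 14 after scaling, led by Cldn5, the claudin of endothelial tight junctions, at 6.41 and 5.29, and Icam2, an adhesion molecule, at 5.16 and 4.09. Smallest in that list were Esm1 at 1.18 and 0.36 and Jam3 at 0.98 and 0.35. Of 11 transcription factors, 9 and 8 were higher, led by Foxf1 at 5.62 and 4.69 and Klf2, a factor induced by shear stress, at 4.72 and 3.60, with Foxo1 at 0.88 and -0.12 and Foxc1 at 0.09 and -0.66 the smallest. Another 8 transcription factors, 5 genes of the Notch pathway and 8 signalling and secreted proteins passed the filter only through lung and were left out of the counts. Of the remaining 5 genes of the Notch pathway, 5 and 1 were higher. Of 17 signalling and secreted proteins, 17 and 15 were higher, led by Thbd (thrombomodulin) at 5.98 and 4.91 and Cav1 (caveolin-1) at 5.86 and 4.80. No gene counted here was called lower in lung on either scale, where 9.8% of genes that pass outside lung were called lower as deposited and 19% after scaling (8.26% and 16% of all genes tested).

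Markers of vessel types were counted in the same way. Of 4 arterial genes 3 were higher in lung on both scales, of 4 venous genes 3 and 2, and of 6 lymphatic genes 5 and 4, with Prox1, which hepatocytes also express, called lower after scaling. All 8 genes counted for lung capillaries were higher on both scales, among them Fendrr, a long non-coding RNA next to Foxf1, at 5.48 and 4.49. Of 10 genes counted for liver sinusoids, 4 were higher in lung as deposited and 1 lower, and 1 higher and 3 lower after scaling, shares near those of all genes that pass outside lung. In liver against the mean of the other 3 tissues, 3 of the 7 sinusoidal genes that pass the filter outside liver were higher as deposited and 5 after scaling. Beside them stand 6.56% and 12.3% of all genes tested, which include genes that pass only through liver. The other 4 passed only through liver, among them Clec4g with 20.9 and 16.6 FPKM there. Of 8 genes listed for glomerular and fenestrated kidney endothelium, all of which pass outside lung, 6 were higher in lung as deposited and 4 after scaling. In kidney, 3 of the 8 were higher and 2 lower on both scales, beside 8.65% of all genes called higher and 16.1% lower as deposited, and 11.5% and 12.1% after scaling. The higher genes, named after their values were seen, were Lpl at 3.32 and 3.66, Igfbp5 at 2.33 and 2.73 and Plat at 1.27 and 1.7, and the lower ones Tbx3 and Gata5.

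**Figure D5:**
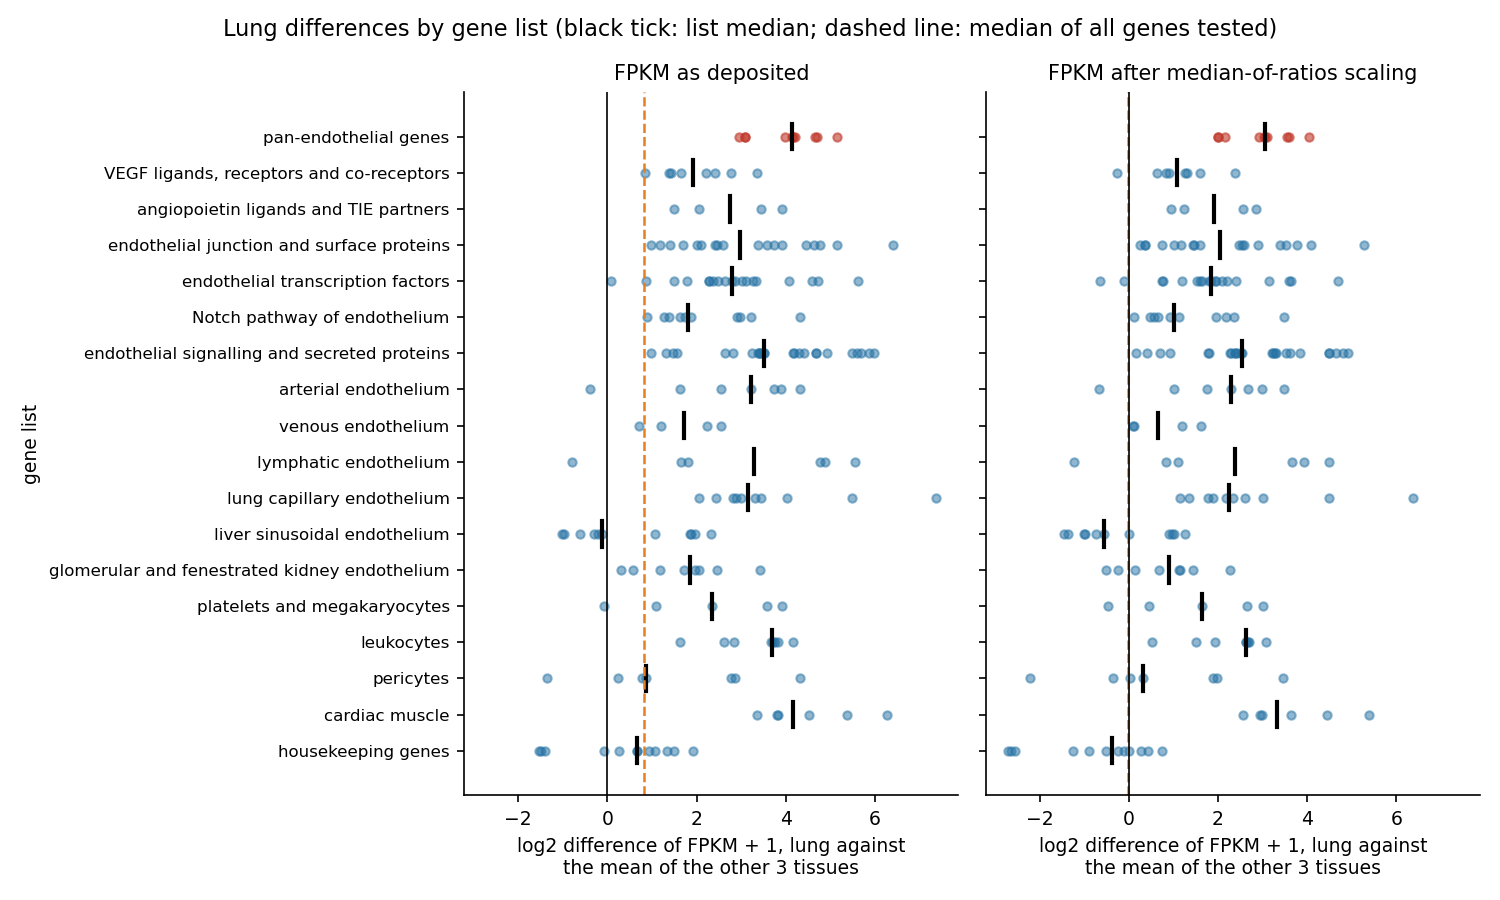
Difference of lung from the mean of the other 3 tissues, in log2(FPKM + 1), for the 10 pan-endothelial genes (red) and each listed gene (blue) that entered the test, as deposited (left) and after median-of-ratios scaling (right). Genes that passed the filter only through lung are drawn too. Black ticks are list medians and the dashed line is the median of all genes tested, 0.82 on the left and -0.02 on the right. The median of the pan-endothelial genes lies at 4.15 and 3.04.

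The summed levels of the leukocyte, platelet and cardiac muscle markers were also highest in lung on both scales, and those of the pericyte markers as deposited only. Sums are in FPKM as deposited unless stated. Counts again cover genes that pass the filter outside lung, beside 35.4% and 10.4% called higher. All 8 leukocyte genes were higher in lung as deposited and 7 after scaling, with summed levels of 406 to 538 FPKM in lung, 15.2 to 20.1 in kidney, 29.4 to 31.8 in liver and 72.0 to 98.7 in small intestine. Of 2 platelet genes counted, 1 was higher on both scales, and the 8 listed summed to 38.1 to 62.2 FPKM in lung, 11.9 to 19.3 in small intestine and 1.24 to 1.72 in kidney and liver. Only 1 cardiac muscle gene passed outside lung, so this list is given by its sums over the 8 listed genes, 259 to 266 FPKM in lung, 8.65 to 9.41 in small intestine and 0.426 to 1.74 in kidney and liver. Of 4 pericyte genes counted, 1 was higher in lung and 1 lower on both scales, and the 7 listed summed to 52.5 to 64.0 FPKM in lung and 8.29 to 34.4 elsewhere. After scaling the pericyte sums of lung, 28.9 to 33.7, overlapped those of small intestine, 28.3 to 31.2. Scaled sums in lung were 224 to 283 for leukocytes, 21 to 32.8 for platelets and 140 to 142 for cardiac muscle, against at most 89.4, 18.5 and 8.98 elsewhere. No gene of these 4 lists was at 0 in both lung libraries. Their part in the lung levels of the members, such as Pecam1 and Esam, which platelets also carry, was not tested. Of 11 housekeeping genes counted, 4 were higher and 3 lower in lung as deposited, and 0 higher and 4 lower after scaling, beside 9.8% and 19% called lower.

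The genes whose pattern was most like the mean pattern of the members were sought among 7096 other genes with a mean of at least 5 FPKM, by the root mean square difference of centred log2(FPKM + 1) values over the 8 libraries after scaling. They were Ldb2 at 0.183, Clec1a at 0.192, Sema3f at 0.194, Arhgef15 at 0.223 and Parvb at 0.235. Among the members, Tie1 was closest to the mean pattern, at 0.102, and Cdh5 furthest, at 0.607. The gene nearest to each single member was Timp2 for Pecam1, Epas1 for Cdh5, Slc9a3r2 for Esam, Cdc42ep1 for Kdr, Myo1c for Flt1, Gm12407 for Tek, Sema3f for both Tie1 and Sox18, Klf2 for Egfl7 and Trim3 for Sox17.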

How the data were processed

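Poly(A) RNA of 8 libraries was sequenced by the authors, mapped with STAR 2.5.3a to an Ensembl mouse genome and deposited as FPKM, normalized to library size with the fpkm function of DESeq2. The counting program and its use of strand are not given in the sources used here. No column of the table was left out. The members and gene lists were chosen with earlier results of these data known. Groups were taken from the sample titles. Values were taken as log2(FPKM + 1), and limma 3.58.1 (R 4.3.3, trended variance) was fitted to all 8 libraries over the 16328 genes that reached 1 FPKM in 2 or more of them, p-values being adjusted over all genes tested, and the script was tested on simulated data. Size factors were computed over genes above 0 in all 8 libraries. Reads were recovered as multiples of a per-library unit, using exon lengths of the GENCODE annotation of GRCm38. Of values up to 50 reads, 94.5% to 96.1% were whole within 0.02, and 3 reads over 1 kb correspond to 0.140 to 0.327 FPKM. Such floors cover counting error only. All 10 members passed the filter, Sox17 only through its lung libraries, and list counts in lung cover genes that pass on the 6 other libraries. In some lists, genes other than members were named as the 2 largest or 2 smallest lung differences. Others were named as ligands of the member receptors, as markers of other cell types or, by pattern, as stated with the result. P-values rest on the spread between the 2 mice of each tissue, pooled over all tissues and moderated over genes, not on that of the tissue compared alone. Differences of replicate 1 from replicate 2 correlated between tissues at -0.217 to 0.027 over genes, so the numbers were not taken to pair samples. Alternatives were other scalings, pseudocount, filters, a replicate block, no trend, limma-voom on recovered reads and leaving out each library. Plots were drawn with matplotlib in Python.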

Additional observations from a re-analysis of the deposited data

How the results depend on the processing

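Under every alternative that kept all libraries, all 10 members were called higher in lung, against the mean of the other 3 tissues and each tissue singly. Small intestine was then called lower for all 10, against a mean that includes lung. Sox17 always carried the limit that lung alone brought it past the filter. The median lung difference of the members was 4.49 with libraries rescaled to the same sum, 4.52 with a pseudocount of 0.1, 3.71 with quantile normalization, 3.38 with limma-voom on recovered reads and 3.04 with median-of-ratios scaling, and 2.94 to 4.24 when a library was left out. With 2 libraries a tissue, several calls among the other tissues depended on the setting or on 1 library, and values of Sox17 in liver and small intestine rest on 14 to 26 reads.

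The share of all genes called in the same fit, in brackets, moved as well. Kidney was called lower than the mean of the others for 1 member with limma-voom (21.1%) and with median-of-ratios scaling (12.1%), and for 1 to 6 when a library was left out (6 without kidney 1, 1 without kidney 2). Liver was called lower for 4 with limma-voom (20.4%), 4 with quantile normalization (13.1%) and 2 with median-of-ratios scaling (13.9%), and for 0 to 9 when a library was left out (0 without liver 2 after scaling). Members higher in kidney than liver numbered 0 with the same sum (13.2%), median-of-ratios (11.4%) or quantile scaling (11.5%), 2 with a pseudocount of 0.1 (24.8%), 2 with the same sum without mitochondrial genes (18%), and 0 to 4 with a library left out. Members lower in kidney than liver numbered 1 with limma-voom (14.5%) and 0 to 1 with a library left out. Members higher in kidney than small intestine numbered 7 with limma-voom (18.9%), 4 with a pseudocount of 0.1 (14.2%), 3 with median-of-ratios (13.6%) or quantile scaling (14%), and 0 to 5 with a library left out. Members higher in liver than small intestine numbered 5 with limma-voom (18%), 4 with median-of-ratios scaling (14%), 3 with quantile normalization (13.1%), and 0 to 4 with a library left out. The cause was not tested.

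Reversals met values that were not called. Flt1 in kidney against the mean of the others was 0.064 with median-of-ratios scaling and 0.31 with limma-voom (-0.68 to 0.34 with a library left out). Kdr in liver was 0.14 and 0.32 (-0.84 to 0.24). Flt1 in liver against small intestine was 0.12 and 0.29, and 0.28 with quantile normalization (-0.46 to 0.28). Egfl7 in liver against small intestine was -0.10 to 1.36 with a library left out. Relative to the other members in lung, members called lower numbered 0 with median-of-ratios scaling and 1 to 2 with a library left out (2 without lung 1). The member called lower was Flt1 as deposited, but Kdr with a pseudocount of 0.1, with limma-voom and without lung 2.

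A replicate block as a term of the fit left the counts of members called as they were as deposited. With the replicate block and median-of-ratios scaling, calls were 1 lower in kidney and 2 in liver against the mean of the others, 0 higher in kidney than liver, 3 in kidney than small intestine and 4 in liver than small intestine, the median lung difference was 3.04, and Flt1 in kidney was 0.064, Kdr in liver 0.14 and Flt1 in liver against small intestine 0.12. Alternatives were followed for 79 values of single members. These were members called on either scale, the lowest and highest of each comparison, and Cdh5, Flt1, Kdr and Sox17 relative to the other members in lung. Of 2085 values under alternatives, 1853 kept their direction and their side of the threshold. The call was lost in 123 and gained in 75, and 34 turned in direction. Every difference of lung from other tissues kept both, so the total hides less stable calls among the other tissues and relative levels.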
